A study of Homo sapiens with 6 samples.

Results

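The genes described here are 38 genes of glucose breakdown and of the response to low oxygen, out of 46427 genes in the GRCh38 gene table, and they were chosen by symbol. Of these, 26 belong to glycolysis: the enzymes of its 10 steps, the enzymes that set fructose-2,6-bisphosphate, lactate dehydrogenases, pyruvate dehydrogenase kinases, and transporters of glucose and lactate. The other 12 are genes known to be induced in hypoxia. All 38 passed the filter on low counts, with between 214 counts (SLC16A1) and 336143 counts (GAPDH) in a library.

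RNA was sequenced from MDA-MB-231 cells, an established line of metastatic, hormone receptor-negative human breast cancer, labelled as wild type in both groups. In 3 cell preparations the cells received control-siRNA and in the other 3 TAZ-siRNA, a siRNA against WWTR1, the gene that encodes the transcriptional coactivator TAZ. All cells were grown in low glucose DMEM with 5.5 mM glucose and serum under 5% CO2, and the labels name no step at low oxygen. The groups compare a transient knockdown in 1 cell line, so the p-values measure the spread between preparations of that line.

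Glycolysis splits glucose into pyruvate in the cytosol and yields ATP without oxygen. Many cancer cells run it fast even in air, pass much of the pyruvate on to lactate, and export the lactate with protons. When oxygen falls, prolyl hydroxylases stop marking the HIF alpha subunits for destruction, and HIF dimers then bind promoters and enhancers of glycolysis genes, of pH-regulating carbonic anhydrases, of the angiogenic factor VEGFA and of feedback genes such as EGLN3. TAZ does not bind DNA itself but acts through partners such as the TEAD factors.

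In cells with TAZ knockdown, the mRNAs of most enzymes of the glycolytic ladder were not called as changed, while 2 of these enzymes and some other glycolysis genes were. PGAM1, the phosphoglycerate mutase of the eighth step, fell to 66.9% of control, and HK2, a hexokinase, fell to 82.7%. PFKFB3 and PFKFB4, which make the activator of phosphofructokinase, rose to 124% and 129% of control. Of the lactate exporters, SLC16A1 fell to 59.7% and SLC16A3 rose to 113%, and the pyruvate dehydrogenase kinase PDK3 rose to 127%. With 1 library left out, HK2, SLC16A1 and SLC16A3 were each called in 1 of 6 fits only, and PDK3 in 2 of 6. Among the hypoxia genes, EGLN3 (154%), CA9 (142%), CA12 (136%) and VEGFA (128%) rose, and the remaining 8 were not called.

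In counts, edgeR called 7 of the 26 glycolysis genes (adjusted p under 0.05, quasi-likelihood test), 4 as higher and 3 as lower, against 22.1% of the 16966 genes tested across the genome (11.9% higher and 10.2% lower). With 1 library left out, the glycolysis calls ran from 2 to 4 higher and from 1 to 7 lower, beside 11.2 to 33.7% of all genes called. The hypoxia genes gave 4 of 12 higher and 0 lower. At an unadjusted p under 0.05 from edgeR, 1 hypoxia gene was lower (BNIP3L), and DESeq2 and limma also called 0 lower. Without TAZ-siRNA replicate 3, however, 3 hypoxia genes were called lower (58.3% called in either direction, beside 33.7% of all genes). The replicate block and the GC and length correction together gave 1 lower (41.7% called in either direction, beside 33.8%). The median log2 fold change was -0.054 over the glycolysis genes and -0.044 over the hypoxia genes, beside -0.0054 over all genes tested. The hypoxia median was above 0 under some settings (0.0069 when GC content and length were corrected for, 0.013 if either replicate 3 of the controls or replicate 1 of the knockdown was left out), and the glycolysis median was -0.018 without control-siRNA replicate 3. In 17 of the 38 genes the 3 TAZ-siRNA libraries lay wholly above (8) or below (9) the 3 control-siRNA libraries, a share of 44.7% beside 39.5% of all genes tested. These shares lie near the background or are counts of few genes, so they describe the genes and do not set them apart from the transcriptome.

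**Figure D1:**
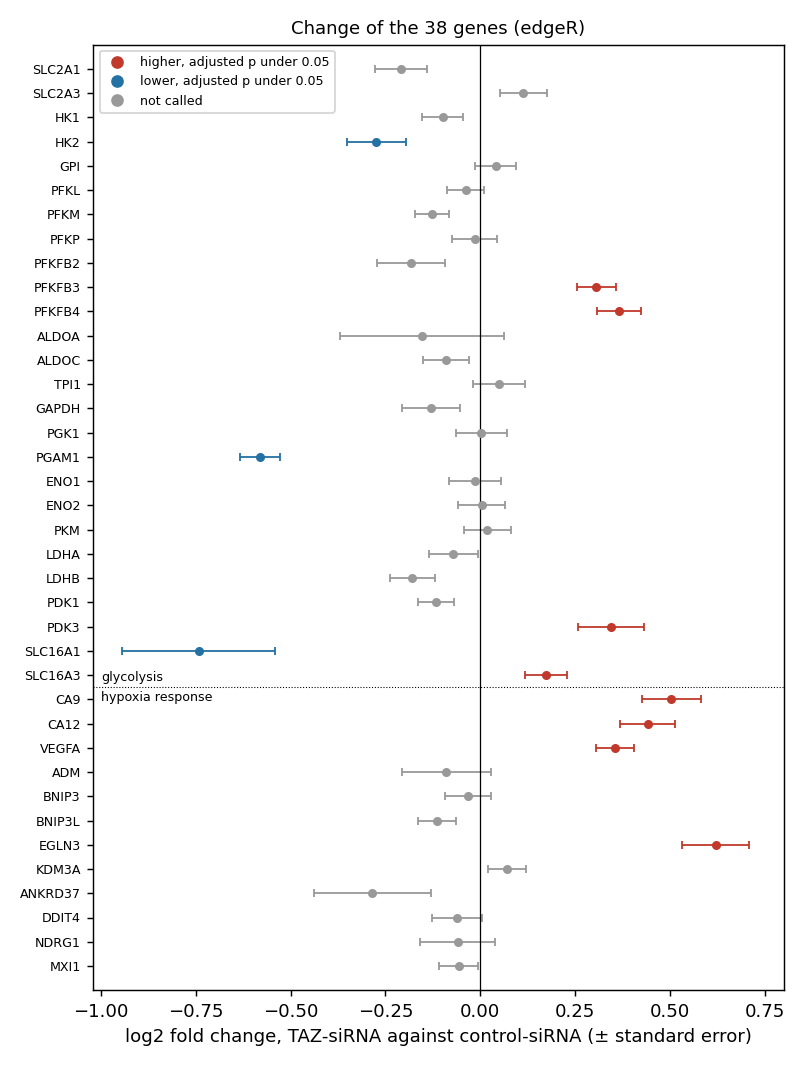
Log2 fold change of each of the 38 genes with TAZ-siRNA against control-siRNA from edgeR, with bars of 1 standard error, in the order of the pathway and then the hypoxia genes. Red marks the 8 genes called higher and blue the 3 called lower, and the grey points, which were not called, cluster around 0.

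Library totals ran from 49662504 to 66769103 counts in controls, and from 48307548 to 71749634 after knockdown. Values are given as CPM, in which counts are divided by the TMM-adjusted library size, or as FPKM where genes are compared with each other. WWTR1 mRNA was at 192, 190 and 190.0 CPM with control-siRNA and at 17.3, 17.0 and 15.1 CPM with TAZ-siRNA, so the knockdown matched the labels in all 6 libraries. The epithelial keratins KRT8 and KRT18 were abundant (mean 244 and 335 FPKM), as was VIM (1533 FPKM), whereas the epithelial adhesion genes EPCAM (0.657 FPKM) and CDH1 (0.0403 FPKM) and the hormone receptor gene ESR1 (0.0047 FPKM) were barely detected. PTPRC, CD3E and DCN, which mark leukocytes and fibroblasts, were listed at 0 in every library, while CD68, a lysosomal gene used as a macrophage marker, was at 37.8 to 41.9 FPKM with control-siRNA and at 28.1 to 31.4 FPKM with TAZ-siRNA. The part of CD68 in the results was not tested. In bulk samples like these, fewer cells with a transcript and less of it per cell cannot be told apart. Replicates carry here the numbers 1 to 3 of the sample descriptions and table columns, and the sample titles count the same libraries from 3 to 5. TAZ-siRNA replicate 3, titled 5, lay nearest to the control mean of its group's libraries in 6 of the 11 called genes. Replicate 1 did so in 4 and replicate 2 in 1, and the same count over all genes was not made. Leaving TAZ-siRNA replicate 3 out raised the share of all genes called from 22.1% to 33.7%.

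Promoter sequence is shown first for the 5 genes that rose whose window holds a match to the motifs below and is placed around the start of their most abundant transcript. For contrast it is also shown for HK2, which fell, and LDHA, which was not called. RefSeq promoter windows (GRCh38.p14) were at hand for 32 of the 38 genes, each from 250 bases before to 50 bases after the gene's start, taking the window nearest to the start of the gene's most abundant transcript. The windows were searched on both strands for ACGTG and GCGTG, the core of the element bound by HIF. The E-box CACGTG contains ACGTG on both strands and therefore counts as 2 matches. ACGTG or GCGTG was found in 26 of the 32 windows (81.2%), beside 58.9% of the windows of genes tested and 48.4% of all 35116 windows. ACGTG alone was in 50% of the genes' windows and in 24.9% of those of genes tested, while GCGTG alone was in 53.1% and 46.8%. GGAATG, the core of the TEAD site, was in 4 of 32 windows (12.5%, beside 11.8% of genes tested), namely those of PFKFB3, PGAM1, ENO1 and MXI1. The window of PGAM1 lies 1627 bases from the start of its most abundant transcript, that of GAPDH 747 and that of PFKP 422 bases. Those of CA12, HK1, GPI, TPI1 and BNIP3 lie 264, 217, 204, 111 and 90 bases away. Any of these windows may miss the promoter in use or part of it. A match to such short letters is a description of sequence and not a site.

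The 250 bases before the start are given 5′ to 3′ on the gene's own strand, with matches to ACGTG or GCGTG on either strand in capitals.
CA9: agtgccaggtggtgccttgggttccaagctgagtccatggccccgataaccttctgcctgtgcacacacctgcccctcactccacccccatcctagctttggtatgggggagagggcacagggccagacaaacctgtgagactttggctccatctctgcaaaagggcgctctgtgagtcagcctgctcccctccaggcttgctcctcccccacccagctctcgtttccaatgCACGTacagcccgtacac
SLC16A3: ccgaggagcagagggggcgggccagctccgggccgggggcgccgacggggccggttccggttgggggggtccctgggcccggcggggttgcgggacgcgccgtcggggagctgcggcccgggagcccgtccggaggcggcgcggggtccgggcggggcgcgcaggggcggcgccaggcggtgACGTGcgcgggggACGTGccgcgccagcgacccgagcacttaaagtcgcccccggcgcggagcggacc
PDK3: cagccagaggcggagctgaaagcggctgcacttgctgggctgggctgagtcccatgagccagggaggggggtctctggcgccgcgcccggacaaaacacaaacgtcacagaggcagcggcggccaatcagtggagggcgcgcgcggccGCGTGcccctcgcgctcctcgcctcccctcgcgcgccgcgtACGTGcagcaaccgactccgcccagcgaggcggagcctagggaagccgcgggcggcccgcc
PFKFB3: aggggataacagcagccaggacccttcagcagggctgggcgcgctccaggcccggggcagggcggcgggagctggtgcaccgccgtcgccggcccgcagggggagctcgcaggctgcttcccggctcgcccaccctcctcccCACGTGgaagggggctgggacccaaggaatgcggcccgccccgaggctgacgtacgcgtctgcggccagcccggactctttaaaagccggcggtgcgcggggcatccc
PFKFB4: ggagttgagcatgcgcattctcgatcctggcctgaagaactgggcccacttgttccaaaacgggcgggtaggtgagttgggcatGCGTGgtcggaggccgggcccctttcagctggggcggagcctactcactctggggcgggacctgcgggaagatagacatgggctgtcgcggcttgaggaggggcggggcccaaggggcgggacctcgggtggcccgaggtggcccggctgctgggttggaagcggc
HK2: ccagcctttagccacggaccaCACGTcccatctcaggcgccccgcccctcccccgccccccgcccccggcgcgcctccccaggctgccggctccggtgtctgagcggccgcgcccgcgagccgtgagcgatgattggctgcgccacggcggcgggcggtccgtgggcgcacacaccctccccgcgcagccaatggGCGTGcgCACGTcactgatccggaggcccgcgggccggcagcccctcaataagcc
LDHA: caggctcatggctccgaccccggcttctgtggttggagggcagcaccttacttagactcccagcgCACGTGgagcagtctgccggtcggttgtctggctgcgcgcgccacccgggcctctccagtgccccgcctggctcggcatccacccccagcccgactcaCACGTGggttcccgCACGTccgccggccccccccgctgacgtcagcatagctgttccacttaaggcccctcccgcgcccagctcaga
They stand at chr9:35673678-35673927 (plus strand), chr17:82228792-82229041 (plus), chrX:24465036-24465285 (plus), chr10:6202682-6202931 (plus), chr3:48556804-48557053 (minus), chr2:74833877-74834126 (plus) and chr11:18394313-18394562 (plus). Counting -1 as the base before the start, the match nearest to the start began at -18 in CA9, -55 in SLC16A3, -61 in PDK3, -107 in PFKFB3 and -166 in PFKFB4. It began at -48 in HK2 and at -73 in LDHA. The 250 bases held 5 matches in LDHA, 3 in HK2, 2 each in SLC16A3, PDK3 and PFKFB3, and 1 each in CA9 and PFKFB4. Of the other genes that rose, CA12 had a window 264 bases from the start of its most abundant transcript, with its nearest match before the start at -234, and EGLN3, the gene with the largest rise among the 38, had no match in its window. VEGFA was not among the 32.

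Entry of glucose was represented by SLC2A1 (GLUT1), the widespread basal transporter, and SLC2A3 (GLUT3), a transporter of high affinity. SLC2A1 was at 559, 575 and 607 CPM with control-siRNA and at 465, 495 and 545 with TAZ-siRNA. All 3 TAZ-siRNA libraries were below the controls, but the change missed the threshold (log2 fold change -0.21, standard error 0.069, edgeR adjusted p = 0.053). Its call turned with the setting, since 7 of 8 other settings gave an adjusted p under 0.05, but 1 of 6 fits with a library left out did (log2 fold change -0.27 to -0.16, adjusted p up to 0.213). SLC2A3 had a log2 fold change of 0.11 (standard error 0.063), and its libraries overlapped. In FPKM, SLC2A1 made up 74.1, 74.2 and 73.0% of the pair with control-siRNA and 67.8, 69.7 and 70.0% with TAZ-siRNA. The share of SLC2A3 was thus higher in every knockdown library, from which no test was made. SLC2A14, a near copy of SLC2A3, took most of the 4.07% of reads assigned to copies, and the sum of both genes changed by 0.12 (edgeR adjusted p = 0.215).

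The first step, phosphorylation of glucose, is carried by hexokinases that dock on mitochondria. HK1 was the more abundant, at 86.9 FPKM on average, and HK2, the inducible form typical of tumours, was at 64.1 FPKM. HK1 gave 349, 361 and 373 CPM with control-siRNA and 324, 342 and 345 with TAZ-siRNA, with a log2 fold change of -0.099 (standard error 0.055, edgeR adjusted p = 0.225). HK1 was called lower in 2 of 8 other settings, the GC and length correction without (-0.154) and with (-0.155) the replicate block. It was called in 0 of 6 fits with a library left out. HK2 was at 436, 437 and 456 CPM with control-siRNA and at 348, 336 and 415 with TAZ-siRNA. The knockdown libraries of HK2 were all below the controls, with replicate 3 nearest to them. Its log2 fold change was -0.27 (standard error 0.078, edgeR adjusted p = 0.030). With 1 library left out, HK2 was called in 1 of 6 fits only, that without TAZ-siRNA replicate 3 (log2 fold change -0.37), and the other fits gave -0.28 to -0.21 with adjusted p-values up to 0.129. The share of HK2 in the hexokinase FPKM was 43.9 ± 0.351% in controls and 40.9 ± 2.44% after knockdown (SD, n = 3 each).

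GPI, which turns glucose-6-phosphate into fructose-6-phosphate, was at 463, 478 and 485 CPM with control-siRNA and at 474, 498 and 495 with TAZ-siRNA, and the groups overlapped (log2 fold change 0.041, standard error 0.054). Phosphofructokinase, the committing step, was mostly PFKP, which held 70.0% of the FPKM of the 3 isoenzymes with control-siRNA and 70.8% with TAZ-siRNA. PFKP was at 500.1, 514 and 539 CPM with control-siRNA and at 493, 508 and 535 with TAZ-siRNA. The values interleave, and the log2 fold change was -0.015 (standard error 0.059). PFKL, the liver form, changed by -0.038, and PFKM, the muscle form, by -0.13 with every knockdown library below the controls (edgeR adjusted p = 0.072). PFKM was called lower in 3 of 8 other settings, over which its log2 fold change reached -0.161, and in 0 of 6 fits with a library left out. SENP1 overlaps PFKM and had 2499 to 4192 counts per library, beside 5033 to 7487 for PFKM.

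The bifunctional PFKFB enzymes make and remove fructose-2,6-bisphosphate, the strongest activator of phosphofructokinase. PFKFB3, which favours synthesis, was at 196, 198 and 204 CPM with control-siRNA and at 239.5, 241 and 259 with TAZ-siRNA. PFKFB4 was at 80.9, 88.3 and 87.6 CPM with control-siRNA and at 107, 118 and 106 with TAZ-siRNA. Both genes were above the controls in all 3 knockdown libraries. The log2 fold change was 0.31 for PFKFB3 (standard error 0.052, edgeR adjusted p = 0.0025) and 0.37 for PFKFB4 (standard error 0.058, edgeR adjusted p = 0.0019). Each was called in all 6 fits with a library left out and in all 8 other settings. UCN2 overlaps PFKFB4 and had 747 to 1050 counts per library, and how the authors' counting used strand is not stated in the sources used here. PFKFB2, the least abundant of the 3 at 1.52 FPKM, had a log2 fold change of -0.18 (standard error 0.089) with overlapping groups. PFKFB3 held 64.1% of the FPKM of the 3 mRNAs with control-siRNA and 63.4% with TAZ-siRNA, while the small share of PFKFB2 was 2.33 to 2.67% in controls and 1.53 to 2.08% after knockdown, without overlap.

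Aldolase, the fourth step, was mainly ALDOA, and its counts were shared with an overlapping gene model. ALDOA was at 1110, 857 and 818 CPM with control-siRNA and at 651, 1085 and 769.5 with TAZ-siRNA, which gave the widest error among the enzymes of the 10 steps (log2 fold change -0.15, standard error 0.216). LOC112694756, a protein-coding model that overlaps ALDOA, held 12.8, 37.0 and 44.5% of the reads of both genes in controls, and 45.9, 11.6 and 44.1% after knockdown. The libraries with high ALDOA were those with few counts on the overlapping gene. Summed over both, the locus was at 1273, 1362 and 1472 CPM with control-siRNA and at 1204, 1228 and 1377 with TAZ-siRNA, and the standard error narrowed to 0.0759 with a log2 fold change of -0.11 (edgeR adjusted p = 0.338). ALDOC, the other aldolase, had a log2 fold change of -0.091 with overlapping groups.

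**Figure D2:**
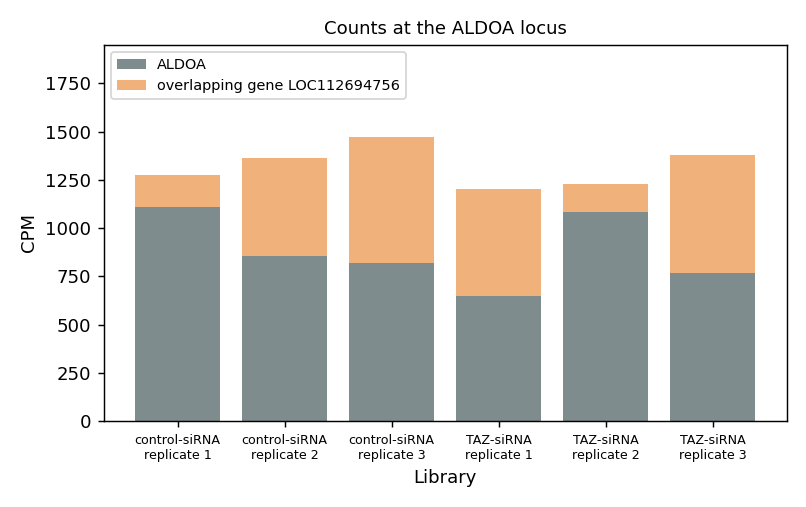
CPM assigned to ALDOA (grey) and to the overlapping gene LOC112694756 (orange) in each of the 6 libraries, stacked. The grey bars swing between 651 and 1110 CPM, while the stacked totals stay between 1204 and 1472 CPM.

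The steps that follow include those that yield the ATP and NADH of the pathway, and GAPDH, among them, had the most abundant mRNA. TPI1, which interconverts the triose phosphates, was at 1024, 1062 and 1151 CPM with control-siRNA and at 1069, 1093 and 1189 with TAZ-siRNA (log2 fold change 0.050, standard error 0.068). GAPDH, which makes NADH and is widely used as a reference gene, was at 4973, 5347 and 5718 CPM with control-siRNA and at 4610, 4765 and 5290 with TAZ-siRNA. GAPDH libraries overlapped between the groups, with a log2 fold change of -0.13 (standard error 0.077, edgeR adjusted p = 0.261), and without TAZ-siRNA replicate 3 it reached -0.19 (edgeR adjusted p = 0.023). GAPDH was also called lower in 1 of 8 other settings, that with the replicate block. PGK1, which makes the first ATP of the pathway, was at 1281, 1353 and 1444 CPM with control-siRNA and at 1303, 1348 and 1433 with TAZ-siRNA. Its log2 fold change was 0.0023 with a standard error of 0.067, the smallest change among the 38 genes.

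PGAM1, which moves the phosphate group within phosphoglycerate, stood apart from its neighbours in the pathway. It was at 489.5, 504 and 514 CPM with control-siRNA and at 332, 333 and 343 with TAZ-siRNA. The groups were far apart, and the 3 libraries within each group lay close together. The log2 fold change was -0.58 (standard error 0.053, edgeR adjusted p = 1.1e-04), with a range of -0.60 to -0.57 over the fits that lacked a library and of -0.59 to -0.54 over the other settings. In FPKM, PGAM1 fell from 249 ± 6.73 (SD, n = 3) to 167 ± 1.72 (SD, n = 3). Retrocopies of PGAM1 held 1.46% of its reads, nearly all on PGAM4, an intronless copy, and the sum of both genes gave the same fold change of -0.58 (edgeR adjusted p = 1.1e-04). PGAM4 alone had a log2 fold change of -0.54, and reads of such near copies cannot be fully told apart.

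Enolase was almost wholly ENO1, the ubiquitous form, at 3556, 3793 and 4058 CPM with control-siRNA and at 3650, 3743 and 3900 with TAZ-siRNA (log2 fold change -0.014, standard error 0.068). ENO2, the neuronal form, held 3.66% of the enolase FPKM with control-siRNA and 3.70% with TAZ-siRNA, and had a log2 fold change of 0.0042. PKM, the pyruvate kinase of the last step, was at 2430, 2515 and 2627 CPM with control-siRNA and at 2466, 2574 and 2631 with TAZ-siRNA, with overlapping groups (log2 fold change 0.019, standard error 0.062). PKM is spliced into an M1 form, typical of muscle and brain, and an M2 form, typical of growing and tumour cells. The M1 transcripts held 3.83, 3.59 and 3.60% of the FPKM of both forms with control-siRNA and 3.66, 4.31 and 4.20% with TAZ-siRNA. M2 was the main form in every library, and the groups overlapped in the M1 share (difference 0.383 percentage points, 2-sided exact permutation p = 0.2, where 3 libraries against 3 cannot go below 0.1).

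Seen as a ladder in FPKM, a unit per transcript length in which genes can be set side by side, the main mRNA of each step ran from HK1 (86.9), GPI (103) and PFKP (175) at the top to GAPDH (3575), ENO1 (1847) and PKM (977) below. PGK1 (253) and PGAM1 (208) were lower than their neighbours. The 15 enzymes of the 10 steps made up 2.17 ± 0.0558% of all TPM in controls and 2.14 ± 0.0595% after knockdown (SD, n = 3 each). Of these 15 enzymes, edgeR called 2 lower (HK2 and PGAM1) and 0 higher, a share of 13.3% beside 22.1% of all genes tested. None was higher at an unadjusted p under 0.05 or with DESeq2 or limma, but 1 (TPI1) was with the replicate block and the GC and length correction together. With the block, the correction or both, 4 of the enzymes were called lower, and the shares of enzymes called (26.7, 26.7 and 33.3%) stayed near those of all genes under the same settings (30.2, 29.9 and 33.8%).

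**Figure D3:**
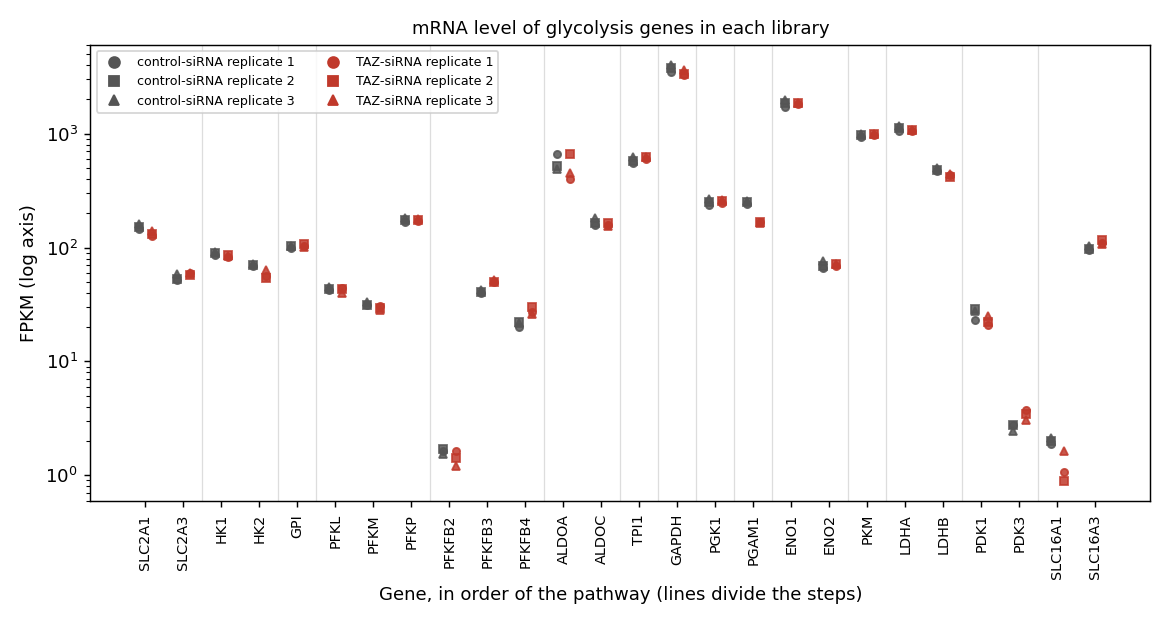
FPKM on a log axis of the 26 glycolysis genes in each library, in the order of the pathway, with control-siRNA in grey and TAZ-siRNA in red. Levels span from PFKFB2 (mean 1.52 FPKM) to GAPDH (3575 FPKM), and PGAM1 is the abundant enzyme whose groups are visibly parted.

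Downstream of pyruvate, lactate dehydrogenase regenerates NAD+. LDHA, the form that favours lactate, was at 2554 to 2915 CPM over the 6 libraries (log2 fold change -0.071, standard error 0.065, groups overlapping). LDHB, the form that favours pyruvate, was at 694, 696 and 729.6 CPM with control-siRNA and at 615, 599 and 657 with TAZ-siRNA. Every knockdown library of LDHB was below the controls, and the call was at the threshold (log2 fold change -0.18, standard error 0.060, edgeR adjusted p = 0.054). LDHB was called in 4 of 8 other settings, over which the log2 fold change ran from -0.18 to -0.084, and in 1 of 6 fits with a library left out. The share of LDHA in the FPKM of both was 69.7 ± 0.708% in controls and 71.3 ± 0.651% after knockdown (SD, n = 3 each). LDHAP4, a processed copy of LDHA, carried most of the 1.51% of LDHA reads assigned to copies.

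Pyruvate dehydrogenase kinases hold pyruvate out of the mitochondrial citric acid cycle by switching off its gatekeeper. PDK3 was at 37.1, 37.3 and 32.6 CPM with control-siRNA and at 49.7, 46.8 and 39.5 with TAZ-siRNA, all above the controls. It rose by a log2 fold change of 0.35 (standard error 0.088, edgeR adjusted p = 0.019). Its call held in 2 of 6 fits with a library left out, that without replicate 1 of the controls and that without TAZ-siRNA replicate 3, and the other 4 gave 0.27 to 0.38 with adjusted p-values from 0.0504 to 0.0851. PDK1, the kinase best known as a HIF target, went the other way in all 3 libraries but was not called (131, 134 and 136 CPM against 124, 118 and 127, log2 fold change -0.12, edgeR adjusted p = 0.102). PDK1 was called lower in 3 of 8 other settings and in 1 of 6 fits with a library left out, that without TAZ-siRNA replicate 3, and its log2 fold change reached -0.23 with limma.

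Lactate leaves the cell through monocarboxylate transporters. SLC16A3 (MCT4), the hypoxia-inducible exporter of glycolytic cells, was the dominant mRNA of the pair at 105 FPKM, while SLC16A1 (MCT1) was at 1.60 FPKM. SLC16A3 was at 274, 274 and 294 CPM with control-siRNA and at 306, 329 and 315 with TAZ-siRNA. Its knockdown libraries were all above the controls, with a log2 fold change of 0.17 (standard error 0.056, edgeR adjusted p = 0.048). This call is at the threshold and was kept in 1 of 6 fits with a library left out (adjusted p up to 0.192) and in 4 of 8 other settings, and SLC16A3 overlaps CSNK1D, which had 5294 to 8175 counts per library. SLC16A1 was at 9.24, 9.72 and 10.5 CPM with control-siRNA and at 5.08, 4.34 and 8.16 with TAZ-siRNA. All 3 were below the controls, replicate 3 by the least. Its log2 fold change was -0.74 (standard error 0.202, edgeR adjusted p = 0.031), and it ran from -1.05 without TAZ-siRNA replicate 3 to -0.57 without TAZ-siRNA replicate 2, with an adjusted p under 0.05 only in the former.

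**Figure D4:**
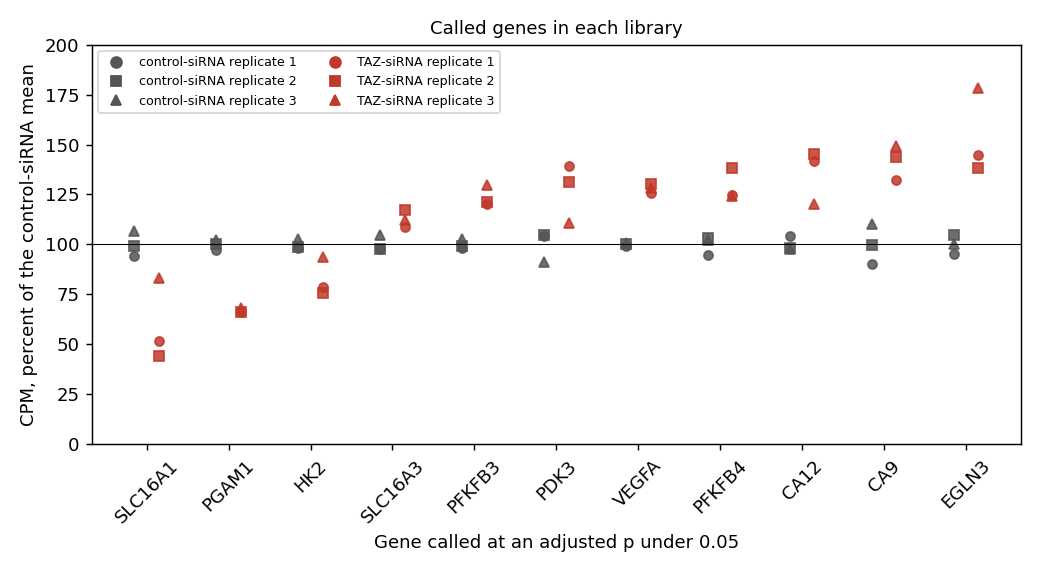
CPM of the 11 called genes in each library, as a percent of the mean of the 3 control-siRNA libraries, with 1 marker shape for each replicate. TAZ-siRNA replicate 3 (red triangles) lies nearest to the controls for SLC16A1, PGAM1, HK2, PDK3, PFKFB4 and CA12, and farthest from them for PFKFB3, CA9 and EGLN3.

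Of the hypoxia genes, both carbonic anhydrases were called. CA9, a membrane carbonic anhydrase that hydrates carbon dioxide outside the cell, was at 29.9, 33.1 and 36.6 CPM with control-siRNA and at 43.97, 47.6 and 49.5 with TAZ-siRNA. CA12, its relative, was at 47.0, 44.3 and 44.1 CPM with control-siRNA and at 64.1, 65.6 and 54.4 with TAZ-siRNA. The groups were apart for both. The log2 fold change was 0.50 for CA9 (standard error 0.078, edgeR adjusted p = 0.0016) and 0.44 for CA12 (standard error 0.072, edgeR adjusted p = 0.0022).

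VEGFA, which drives the growth of blood vessels, was at 303, 306 and 307 CPM with control-siRNA and at 384, 397 and 391.7 with TAZ-siRNA. Its libraries were tight within each group, and the log2 fold change was 0.36 (standard error 0.050, edgeR adjusted p = 9.6e-04). ADM, which encodes the vasodilator adrenomedullin, was at a median of 186 CPM with control-siRNA and at 158, 156 and 212 CPM with TAZ-siRNA. For ADM the TAZ-siRNA libraries lay on both sides of the controls (log2 fold change -0.089, standard error 0.118), and without replicate 3 it was called lower (-0.24, edgeR adjusted p = 0.0028).

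EGLN3, a prolyl hydroxylase that marks HIF alpha subunits for destruction and is itself induced by HIF, was at 51.2, 56.4 and 53.9 CPM with control-siRNA and at 78.1, 74.4 and 96.1 with TAZ-siRNA. Every knockdown library was above the controls, replicate 3 by the most. It rose by a log2 fold change of 0.62 (standard error 0.089, edgeR adjusted p = 0.0013), which ran from 0.51 to 0.70 with each library left out. KDM3A, a histone demethylase of the same enzyme class, had a log2 fold change of 0.071 (standard error 0.050) with overlapping groups. CA9, CA12, VEGFA and EGLN3 were each called in all 6 fits with a library left out and in all 8 other settings.

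The remaining hypoxia genes gave fold changes below 0, none of them called by edgeR. BNIP3 and BNIP3L, which direct mitochondria to autophagy, had log2 fold changes of -0.032 and -0.11, and the knockdown libraries of BNIP3L were all below the controls (280, 294 and 286 CPM against 263, 260.3 and 272, edgeR adjusted p = 0.133). NDRG1, a stress-induced gene of growth arrest, was at 726, 797 and 906 CPM with control-siRNA and at 702, 748 and 880 with TAZ-siRNA, a spread within groups that was wider than the difference between them (log2 fold change -0.059). DDIT4 (REDD1), an inhibitor of mTORC1, had a log2 fold change of -0.062, and MXI1, an antagonist of MYC, one of -0.057, both with overlapping groups. ANKRD37, a small ankyrin-repeat gene at 8.10 FPKM that overlaps UFSP2 and LRP2BP, was at 7.32, 7.78 and 8.54 CPM against 5.79, 5.27 and 8.33. Replicate 3 alone brought the TAZ-siRNA libraries of ANKRD37 into the control range, and without it the log2 fold change moved from -0.28 (edgeR adjusted p = 0.220) to -0.50 (edgeR adjusted p = 0.0023).

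**Figure D5:**
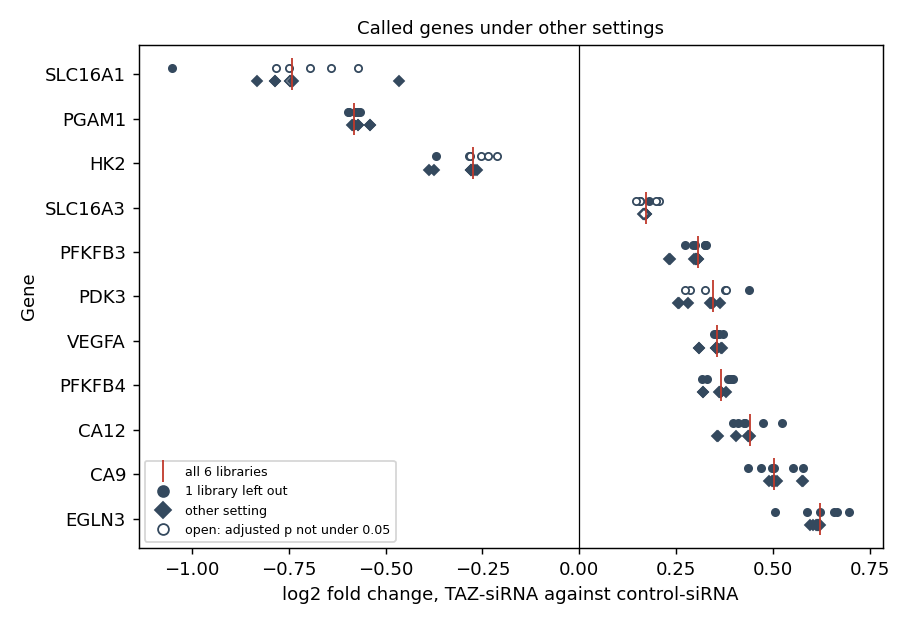
Log2 fold change of the 11 called genes with all 6 libraries (red line), with each library left out (circles) and under 8 other settings, 9 for PGAM1 (diamonds), where open symbols have no adjusted p under 0.05. For 7 genes every symbol is filled, and the open ones belong to SLC16A1, HK2, SLC16A3 and PDK3, while no called gene crosses 0.

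Of 62 other genes of glucose handling, 49 passed the filter, and edgeR called 7 higher and 6 lower (26.5%, near the 22.1% of all genes, with a median log2 fold change of -0.020). The largest rises were those of SLC2A12 (0.72, edgeR adjusted p = 0.0016) and SLC2A13 (0.49), transporters of glucose and of myo-inositol, and of PDK4 (0.55), another pyruvate dehydrogenase kinase. The largest falls were those of PCK2 (-0.70, edgeR adjusted p = 6.0e-04), which makes phosphoenolpyruvate in mitochondria, of PGAM4, the copy of PGAM1, and of ENO3 (-0.51), the muscle enolase. The 13 genes that did not pass include forms known from other tissues, such as PKLR of liver and red cells and LDHC of testis.

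Of 44 other hypoxia-responsive genes, 42 passed the filter, and edgeR called 12 higher and 6 lower (42.9%, beside 22.1% of all genes), around a median of 0.090 on the log2 scale. BHLHE41 (0.58), a circadian repressor, RORA (0.48), a nuclear receptor, and KDM7A (0.37), a histone demethylase, rose most. EDN1 (-1.38, edgeR adjusted p = 1.4e-04), which encodes the vasoconstrictor endothelin-1, and HILPDA (-0.33), a lipid droplet protein, were among the largest falls. The share stayed above that of all genes with DESeq2 (47.6% beside 25.1%), without control-siRNA replicate 3 (19% beside 12.1%), without TAZ-siRNA replicate 2 (26.2% beside 15.3%) and without TAZ-siRNA replicate 3 (57.1% beside 33.7%), but was below it or close to it in the other fits with a library left out. Without control-siRNA replicate 2 the higher calls dropped to 2, and 9.52% of the list was called beside 11.2% of all genes. The shares were 14.3% beside 13.1% without control-siRNA replicate 1, and 14.3% beside 11.9% without TAZ-siRNA replicate 1.

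Of the genes that carry or control the HIF signal, HIF1A rose (281.5 to 299 CPM against 407 to 447, log2 fold change 0.53, edgeR adjusted p = 2.5e-04), although antisense genes overlap it, and EPAS1, which encodes HIF-2 alpha, fell (-0.46, edgeR adjusted p = 7.8e-04). In the same direction as HIF1A, the partners ARNT (0.24) and ARNT2 (0.47) and the hydroxylases EGLN1 (0.19) and HIF1AN (0.15) rose, while CITED2 (-0.19), which competes with HIF for a coactivator, fell, so that of 11 such genes tested 5 were called higher and 2 lower (63.6%, beside 22.1% of all genes). With a library left out, a recount chosen after the data were seen, 27.3 to 81.8% of the list was called beside 11.2 to 33.7% of all genes, and EGLN1 is also one of the other hypoxia-responsive genes counted above.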

How the data were processed

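RNA was measured in 3 cell preparations with control-siRNA and 3 with TAZ-siRNA. Per the study's methods, the authors mapped trimmed reads of stranded mRNA libraries to GRCh38 with HISAT2 and quantified RefSeq genes and transcripts with StringTie, while the submitters' processing notes also name Bowtie 0.12.2 and the mouse build mm8. GRCh38 was taken because the methods state it and the tables hold human RefSeq transcripts. The deposited estimated counts are whole numbers and were used as given. The deposited FPKM were scaled by the authors for length and library size, and the deposited TPM were scaled by the authors for length and to a common total. Use of strand in counting is not given in the sources used here, nor is the time between transfection and harvest.

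All genes were fitted with edgeR 4.0.16 (R 4.3.3) by its robust quasi-likelihood test with TMM factors (0.978 to 1.02), low counts removed by filterByExpr (minimum count 10) and Benjamini-Hochberg adjustment over 16966 genes. Genes with an adjusted p under 0.05 are termed called. The biological coefficient of variation was 8.04%. A fit of 1 gene rests on 3 libraries against 3. Alternatives were DESeq2 1.42.0, upper-quartile factors, no filter, the replicate number as a block, a spline correction for GC content and length with 5 degrees of freedom, limma 3.58.1 on log2 FPKM with a pseudocount of 1 or 0.1, a threshold of 0.01 and leaving out each library. Summing ALDOA, PGAM1 and SLC2A3 with an overlapping gene or copy was chosen after seeing the data. The code was tested on simulated counts. Replicates differed by more than sampling noise (chi-square 6.83 to 42.1 per degree of freedom), and 3 counts in a library equal 0.0418 to 0.0621 CPM, a floor that covers counting error only.

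Members and lists were chosen with earlier results of these data known. Library values are given for called members and for the most abundant member of each of the 10 steps, and from each other list the 3 largest rises and 3 largest falls are named among called genes whose mean reached 1 CPM, except for an item that is not reported here. Members whose library values are printed outside this rule (SLC2A1, LDHB, PDK1, ADM, BNIP3L, NDRG1 and ANKRD37) were chosen after their values were seen. Promoter sequences are from RefSeq on GRCh38.p14.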

Additional observations from a re-analysis of the deposited data

How the results depend on the processing

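Of the 11 called genes, 7 were called in every fit that left out 1 library (PFKFB3, PFKFB4, PGAM1, CA9, CA12, VEGFA and EGLN3) and at an adjusted p under 0.01. Under the 8 other settings 9 were always called (all but SLC16A1, lost with no filter on low counts, and SLC16A3). Of the 27 genes not called, 11 were called in a single alternative or more. Counting error was small beside the spread between preparations, which with 3 libraries a group limits these calls.

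The share of all genes called moved with the settings too, from 22.1% to 25.1% with DESeq2, 12.6% with no filter, 16.6 and 16.7% with limma, 29.9% with the GC and length correction, 30.2% with the replicate block and 33.8% with both, and from 11.2 to 33.7% with a library left out, so the counts below are to be read against it. The 3 glycolysis genes called lower became 5 with DESeq2 and with limma on log2(FPKM + 1) or log2(FPKM + 0.1), 8 with the GC and length correction and 1 at an adjusted p under 0.01, and ran from 1 to 7 with a library left out, the 7 without TAZ-siRNA replicate 3. The 4 called higher became 2 at 0.01, 3 with upper-quartile factors, no filter or limma and 5 with the replicate block and the GC and length correction, and ran from 2 to 4 with a library left out. Deviations of same-numbered replicates from their group means had correlations of -0.0173, 0.00865 and 0.0698, beside -0.0951 to 0.1 for differently numbered ones. With 3 libraries a group, these values cannot show whether the numbers pair the samples. With the replicate block, 8 glycolysis genes were called lower, and with the replicate block and the GC and length correction 8 again, with 1 hypoxia gene (BNIP3L) lower. The 0 hypoxia genes called lower became 3 without TAZ-siRNA replicate 3 (range 0 to 3).

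Other glucose genes called higher went from 7 to 12 with the GC and length correction, with or without the replicate block, to 4 at 0.01, and from 4 to 9 with a library left out, while those lower ran from 4 to 11. Other hypoxia genes called higher went from 12 to 4 at 0.01 and ran from 2 to 16, and those lower went from 6 to 2 at 0.01 and ran from 2 to 8.

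No called gene turned its sign, and 9 that were not called did, all of them near 0 except ALDOA (-0.15 with all libraries). With the GC and length correction, log2 fold changes were -0.034 for GPI, -0.054 for PGK1, 0.024 for ENO1 and 0.020 for BNIP3, and with the replicate block added they were -0.034, -0.054, 0.025 and 0.019. Upper-quartile factors gave -0.0024 for PGK1 and -5.7e-04 for ENO2, and no filter gave -0.0017 for PGK1. With each library left out, the ranges were -0.044 to 0.015 for PFKP, -0.38 to 6.4e-06 for ALDOA, -0.037 to 0.048 for PGK1, -0.059 to 0.034 for ENO1, -0.038 to 0.063 for ENO2, -0.0064 to 0.048 for PKM, -0.064 to 0.015 for BNIP3 and -0.155 to 0.028 for NDRG1. The causes were not tested.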
